A study of Mus musculus with 12 samples.

Results

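In the gene count matrix of cultured mouse hippocampal neurons, 1976 of 21312 rows carried no gene name. These rows, called unnamed loci here, were chosen by that missing name alone, and the other 19336 rows are the named loci they are set against. Each unnamed locus is listed as MSTRG and a number, the default label that the transcript assembler StringTie gives to a gene it builds from aligned reads. No named row had such an ID. The table gives neither position, strand, length nor sequence for them, 0 of the 1976 IDs were found in the reference gene tables used here, and the files do not pair the IDs with names, so no locus is identified and no sequence is shown.

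Hippocampal neurons of WT mice at postnatal day 4 were cultured and given vehicle, soluble ErbB4 ectodomain (sErbB4, 20 nM for 4 h), DAPT (20 µM), or DAPT and then sErbB4 at the same doses (DAPT+sErbB4). DAPT was added after 8 d in culture and left overnight by the series' description, and for 1 d from a day later in the study's text, which the values cannot decide. Each of the 4 conditions had 3 libraries of poly-A selected RNA. The study describes 3 platings for each condition, from mice of several litters, and the labels do not say which library came from which plating or litter, so p-values measure the spread between these libraries only. All groups were WT, and vehicle is the only control.

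An assembler opens a locus wherever reads align, and the locus goes without a gene name when the pipeline cannot tie it to an annotated gene. Such loci can hold unannotated long noncoding RNAs, transcribed repeats, copies of ribosomal or mitochondrial sequence, retained introns or extended ends of known genes, and fragments of any of these. Nrg1, a neuronal membrane protein, can act as a receptor for ErbB4. γ-Secretase, the protease that DAPT inhibits, cuts Nrg1 inside the membrane and releases an intracellular fragment that can reach the nucleus, and it also cleaves Notch and many other membrane proteins. The comparison of sErbB4 with DAPT+sErbB4 was named nuclear back signaling in the study, DAPT+sErbB4 with DAPT local back signaling, and sErbB4 with DAPT overall back signaling.

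Library totals ranged from 36.5 to 54.4 estimated counts in units of 1000000, of which 18.7 to 30.8 units fell on named loci. Levels are given as CPM, counts per 1000000 counts on named loci after TMM scaling, so the unnamed loci stand outside the denominator and their summed level can reach 1017470 CPM. Lengths of the loci are not in the table, so levels are counts and not values per length. Of the markers fixed for each cell type, all were detected. Neuronal markers summed to 930 to 1196 CPM, those of astrocytes and radial glia to 6602 to 9458 CPM, of oligodendrocyte precursors to 404 to 973 CPM, and of microglia to 53.0 to 68.1 CPM, so the cultures held glial as well as neuronal transcripts.

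Unnamed loci held close to as many counts as all named loci together. In vehicle they took 47.0, 48.8 and 48.6% of the counts in the 3 libraries. In sErbB4 they took 51.6, 43.4 and 47.2%. In DAPT the shares were 51.8, 48.3 and 49.5%, and in DAPT+sErbB4 they were 47.8, 47.1 and 46.0%. The sErbB4 libraries spanned nearly the whole range of the experiment, replicate 2 being the lowest library of all, and the conditions overlapped except that every DAPT+sErbB4 library was below every DAPT library. That difference was -2.92 percentage points (exact permutation test, two-sided, p = 0.1, the smallest that 3 libraries against 3 allow, adjusted p = 0.7 over 7 comparisons). Without DAPT the share was on average 0.66 points below that with DAPT, a difference smaller than the spread between replicates (exact permutation test within sErbB4 states, p = 0.655, adjusted p = 0.8, where 0.005 is the smallest possible). The sErbB4 effect without DAPT minus that with DAPT was 2.21 points (p = 0.465, same exact test, adjusted p = 0.8).

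**Figure D1:**
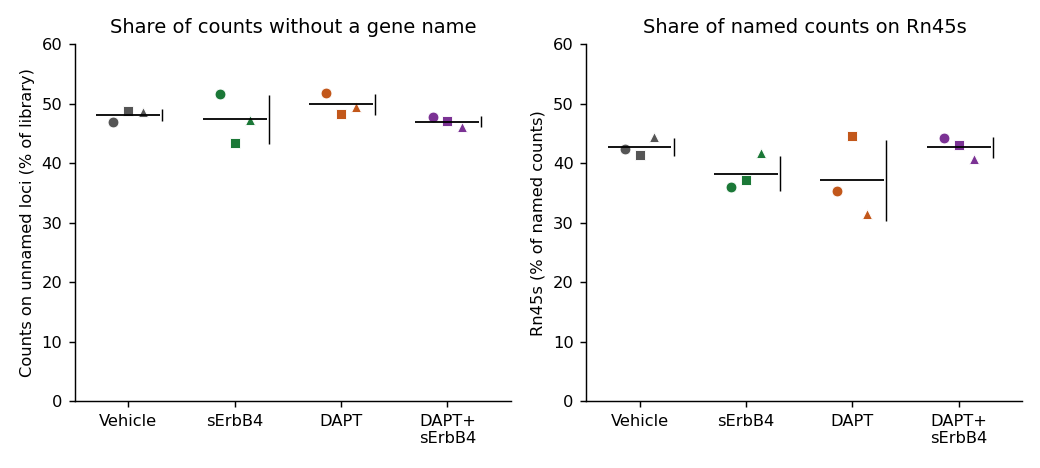
Percent of a library's counts on unnamed loci (left) and percent of named counts on Rn45s, the ribosomal RNA precursor row (right), for the 4 conditions. Circles, squares and triangles are replicates 1, 2 and 3, the horizontal line is the mean and the vertical line the SD (n = 3), and the unnamed share lies between 43.4 and 51.8% in all 12 libraries.

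Both measures that could move with this share were uncertain in their relation to it. Rn45s held 31.4 to 44.6% of the named counts, and its share of named counts and the unnamed share had r = -0.33 over the 12 libraries (permutation p = 0.29, rho = -0.31, permutation p = 0.32). Without DAPT replicates 1 and 3, the libraries farthest from the median of Rn45s, r was 0.03. For the library total, r was -0.42 (permutation p = 0.17) and rho -0.58 (permutation p = 0.053, adjusted p = 0.11 over the 2 relations), and r was -0.36 without vehicle replicate 2 and sErbB4 replicate 2. None of the RefSeq symbols of the 37 mitochondrial genome genes matched a named row, which is a match of symbols only and does not place their counts.

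Very few loci carried the unnamed counts. The most abundant locus of a library held 13.9 to 16.3% of them, the 10 most abundant 78.0 to 79.4%, and the 100 most abundant 96.3 to 97.4%. In every library 4 loci were enough for 50% of the unnamed counts and 17 to 20 loci for 90%. Among named loci, 50% took between 11 and 152 rows, a number that moved with Rn45s, and 90% took 4168 to 5038 rows. The curves for the 12 libraries lay almost on each other for unnamed loci and fanned out for named ones. The share on the 10 most abundant loci was 0.20 points higher without DAPT than with it, which was within the spread between libraries (exact permutation test within sErbB4 states, two-sided, p = 0.445). Of the 10 loci with the highest mean share, 9 or 10 were among the first 10 in each library, so nearly the same loci led in all conditions.

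**Figure D2:**
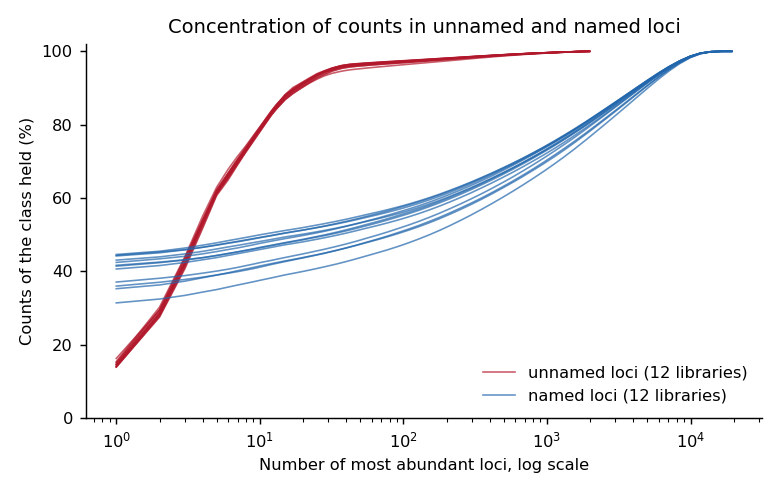
Percent of the counts of a class held by its most abundant loci (y axis) against the number of loci summed (x axis, log scale), with 1 line per library. The 10 most abundant unnamed loci held 78.0 to 79.4% of unnamed counts, whereas named lines start at 31.4 to 44.6%, the share of Rn45s, and rise slowly.

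The locus with the highest mean share of all counts was MSTRG.5888. It stood at 137882, 135538 and 144016 CPM in vehicle, 160215, 104386 and 130329 CPM in sErbB4, 150612, 140682 and 120156 CPM in DAPT and, with both agents, at 135912, 126900 and 117044 CPM. The conditions overlapped, and sErbB4 replicates 1 and 2 were its highest and lowest libraries. By the share of all counts, MSTRG.5888 held 6.92% (SD 0.66 over the 12 libraries), MSTRG.9126 6.86% (SD 0.44), MSTRG.5572 6.57% (SD 0.34), MSTRG.12033 5.31% (SD 0.29) and MSTRG.7156 3.97% (SD 0.21). The differences between the first 3 were within their spread over libraries.

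None of these 5 loci was called in any of the 7 comparisons. MSTRG.9126 stood at 141428 ± 1879 CPM in vehicle, 121318 ± 14968 CPM in sErbB4, 137170 ± 10155 CPM in DAPT and, with both agents, at 130295 ± 12352 CPM (SD, n = 3 each). MSTRG.7156 stood at 83411 ± 5693, 72654 ± 10274, 74550 ± 9057 and 76779 ± 3262 CPM in the same order. Vehicle was the highest and sErbB4 the lowest mean for both, with libraries that overlapped other conditions. Across the 5 loci, log2 fold changes (FC) ran from -0.22 to -0.08 in sErbB4 against vehicle (smallest adjusted p = 0.63, edgeR quasi-likelihood test) and from 0.02 to 0.16 in vehicle against DAPT (smallest adjusted p = 0.32, same test). Of the 20 most abundant loci, 0 were called in any comparison, while 1 of them had an adjusted p of 0.048 in vehicle against DAPT with an FC under the limit for a call.

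Below this head the unnamed loci formed a long tail of low rows present in nearly every library. At a mean of 1000 CPM or more there were 39 unnamed and 41 named loci, at 100 CPM or more 108 and 1037, and at 5 CPM or more 1204 and 10887. The tested unnamed loci had a median of 7.02 CPM against 12.5 CPM for named ones, and 35.2% of them lay between 2 and 5 CPM against 11.8% of named loci. Few were missing from a library, with 20 to 35 unnamed loci (1.01 to 1.77%) listed at 0, against 10.9 to 14.8% of named rows. After the 100 most abundant, the other 1876 loci held 1.23 to 1.59% of all counts. Of the 1976 loci 1957 (99%) passed the filter on low counts, against 15683 of 19336 named (81.1%), and 19 unnamed loci were too low to be tested.

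At the median, unnamed loci varied more between libraries of a condition than named ones. For the 1201 loci at 5 CPM or more and above 0 in every library, the highest library was at the median 1.14, 1.18, 1.16 and 1.13 times the lowest in vehicle, sErbB4, DAPT and DAPT+sErbB4, against 1.09, 1.12, 1.09 and 1.08 times for 10882 named loci. Differences over 2-fold between sErbB4 libraries occurred in 31 unnamed loci (2.58%) and 0.855% of named ones, and those between DAPT+sErbB4 libraries in 3 (0.25%) and 0.51%. The median biological coefficient of variation was 0.10 for unnamed and 0.060 for named loci. Between 2 and 5 CPM, where levels were alike, it was 0.161 and 0.104.

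MSTRG.7893, chosen after its values were seen, was listed at 0 in some libraries and among the most abundant loci in others. It was listed at 0 in vehicle replicates 1 and 3, sErbB4 replicate 1 and DAPT+sErbB4 replicates 1 and 2, and stood at 2843 CPM in vehicle replicate 2, 1333 and 1480 CPM in sErbB4 replicates 2 and 3, and 2091 CPM in DAPT+sErbB4 replicate 3. In DAPT it was at 1963, 2064 and 1503 CPM. Zeros occurred in 5 libraries of 3 conditions, and DAPT was the condition without one. It was the only unnamed locus at a mean of 100 CPM or more with a 0 in any library, and no named locus at that level had one. It was called in none of the comparisons (log2 FC of vehicle against DAPT -0.96, SE 2.74, edgeR adjusted p = 0.86).

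MSTRG.15418, chosen in the same way, differed most among libraries of sErbB4. It stood at 16941, 2275 and 4292 CPM in that condition, at 4932, 4529 and 8736 CPM in vehicle, at 9331, 8379 and 8293 CPM in DAPT and, with both agents, at 8939, 8618 and 6581 CPM. The highest and the lowest library of the whole experiment were both given sErbB4 and were 7.45-fold apart, and it was called in no comparison. MSTRG.5376, MSTRG.7832 and MSTRG.16306 moved with it. Counts on MSTRG.5376 were 0.277 to 0.368 times those on MSTRG.15418 in every library, counts on MSTRG.16306 were 0.0635 to 0.0799 times, and counts on MSTRG.7832 were 0.958 to 0.976 times those on MSTRG.5376. The ratio of these 4 loci thus varied by 1.02- to 1.35-fold over the 12 libraries. For MSTRG.15418 the libraries with DAPT stood at 6581 to 9331 CPM, inside the range of 2275 to 16941 CPM of those without DAPT. Libraries with and without DAPT thus overlapped, and the lowest and highest were without DAPT. Whether the spread differs with DAPT was not tested.

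**Figure D3:**
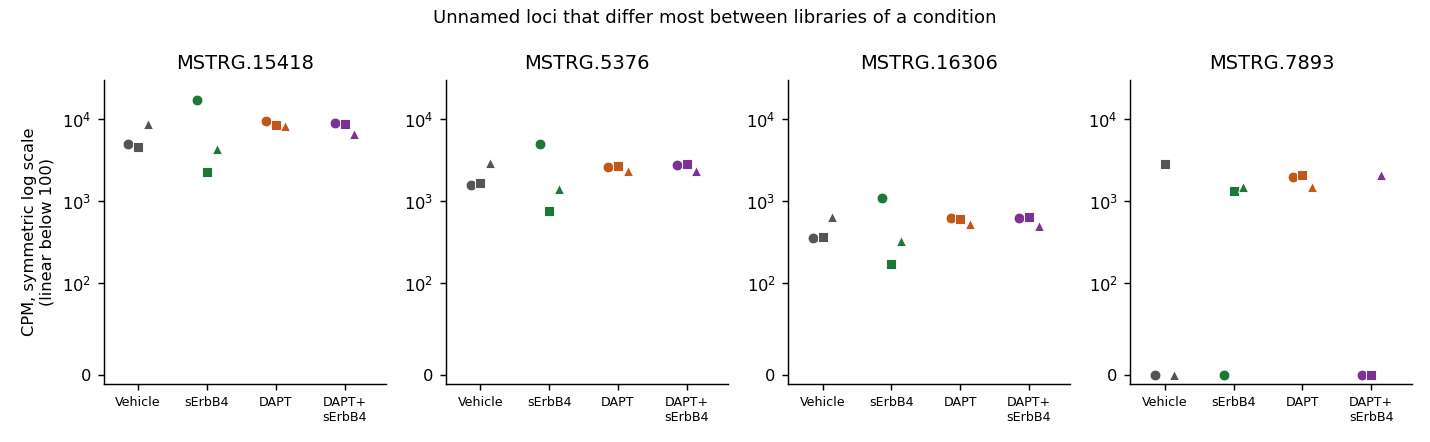
CPM of 4 unnamed loci in each library by condition, on a symmetric log axis that is linear below 100, with circles, squares and triangles for replicates 1, 2 and 3. MSTRG.15418, MSTRG.5376 and MSTRG.16306 are highest in sErbB4 replicate 1 and lowest in sErbB4 replicate 2, and MSTRG.7893 is listed at 0 in 5 libraries.

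The sErbB4 libraries were first compared with DAPT+sErbB4, which differ in γ-secretase inhibition. Of 1957 unnamed loci tested, 180 were called, 91 higher and 89 lower in sErbB4 (edgeR quasi-likelihood test, adjusted p under 0.05 over all 17640 rows and an FC past the limit the study used). That is 9.20% of unnamed loci, with 11.2% of all rows and 11.4% of named loci called under the same rule. Higher calls made up 4.65% of unnamed loci against 6.71% of all rows, and lower calls 4.55% against 4.46%. The called unnamed loci held 2.17% of the unnamed counts. Without sErbB4 replicate 2 the split was 50 higher and 89 lower, and with library size alone as the scaling 100 and 28.

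Vehicle was compared with DAPT for the same question without added ligand. Here 203 unnamed loci were called, 159 higher and 44 lower in vehicle. The share called was 10.4%, with 11.2% of all rows and 11.3% of named loci. Higher calls made up 8.12% of unnamed loci against 6.96% of all rows, and lower calls 2.25% against 4.24%. The median log2 FC was 0.08 over unnamed and -0.01 over named loci. The split was 157 and 45 with RLE size factors, 128 and 50 with TMM factors from all rows and 121 and 38 by limma. With library size alone, which shifts the median of all rows to -0.20, 41 were higher and 132 lower. The medians were then -0.12 over unnamed and -0.21 over named loci. A change of scaling moves both classes nearly alike, so the order of these medians is no check on it. Beside these calls, the summed markers of oligodendrocyte precursors were at 952 to 960 CPM in vehicle and 418 to 453 CPM in DAPT, those of astrocytes and radial glia at 8372 to 9458 and 6999 to 7414 CPM, and those of neurons at 930 to 988 and 1042 to 1098 CPM. The part of these cells in the unnamed calls was not tested.

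Between 2 and 5 CPM, 7.98% of unnamed and 15.9% of named loci were called in vehicle against DAPT, and between 20 and 50 CPM 14.1 and 9.84%. For sErbB4 against DAPT+sErbB4 the shares were 7.69 and 15.0% in the lower of these ranges and 7.41 and 10.2% in the upper. Whether these shares differ was not tested. Of the 100 most abundant unnamed loci, 13 were called in vehicle against DAPT and all 13 were higher in vehicle, where 11.2% of all rows were called and 16.6% of named loci at 100 CPM or more. In sErbB4 against DAPT+sErbB4, 19 of the 100 were called, 10 higher and 9 lower, with 11.2% of all rows and 15.0% of named loci at that level.

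MSTRG.9444 had the highest log2 FC of the called unnamed loci at 5 CPM or more in both comparisons. It stood at 52.0, 49.6 and 44.6 CPM in vehicle and 45.9, 49.6 and 55.1 CPM in sErbB4, against 16.6, 19.6 and 17.7 CPM in DAPT and 20.7, 18.0 and 17.4 CPM in DAPT+sErbB4. The 6 libraries without DAPT all lay above the 6 with DAPT. Its log2 FC was 1.43 in sErbB4 against DAPT+sErbB4 (SE 0.09, edgeR adjusted p = 1.5e-06) and 1.44 in vehicle against DAPT (SE 0.09, edgeR adjusted p = 1.5e-06). The values with and without sErbB4 differed by less than their errors (interaction log2 FC -0.01, SE 0.13, adjusted p = 1.0).

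MSTRG.1232 was the clearest locus in the other direction. It stood at 8.03, 8.77 and 7.78 CPM in vehicle and 5.61, 7.48 and 8.54 CPM in sErbB4, against 18.4, 19.0 and 17.8 CPM in DAPT and 17.4, 17.9 and 19.2 CPM in DAPT+sErbB4. Again the libraries with and without DAPT did not overlap. The log2 FC was -1.33 (SE 0.11, edgeR adjusted p = 9.1e-06) in sErbB4 against DAPT+sErbB4 and -1.17 (SE 0.11, edgeR adjusted p = 2.95e-05) in vehicle against DAPT. Both loci kept these calls in all 12 fits that left out 1 library.

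The other loci named by the same rule were closer to the threshold. MSTRG.12251, the second highest, stood at 8.49, 6.52 and 5.71 CPM in vehicle, 4.35, 7.19 and 8.78 CPM in sErbB4, 3.51, 4.20 and 2.56 CPM in DAPT and 3.06, 1.79 and 4.04 CPM in DAPT+sErbB4. Its libraries without DAPT lay above those with DAPT, though by little. The log2 FC was 1.20 (SE 0.32, edgeR adjusted p = 0.018) in sErbB4 against DAPT+sErbB4 and 1.03 (SE 0.32, edgeR adjusted p = 0.037) in vehicle against DAPT. The first call was lost without sErbB4 replicate 2 or 3 or DAPT+sErbB4 replicate 1 or 2 (adjusted p 0.050 to 0.068, same test), and the second without vehicle replicate 1 or 2, DAPT replicate 1 or 3 or DAPT+sErbB4 replicate 1 (0.052 to 0.15, same test) and with a replicate block (0.065). The log2 FC in fits without 1 library was 0.93 to 1.51 for the first and 0.83 to 1.20 for the second.

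MSTRG.8690 was lower in sErbB4 than in DAPT+sErbB4, at 5.99, 6.63 and 6.85 CPM against 9.06, 13.0 and 9.71 CPM. In vehicle it stood at 13.6, 9.22 and 6.59 CPM and in DAPT at 8.12, 8.70 and 10.2 CPM, so these libraries overlapped. Its log2 FC was -0.71 (SE 0.22, edgeR adjusted p = 0.041), and the call was lost in 8 of 12 fits that left out 1 library, all but those without vehicle replicate 1 or 3, DAPT replicate 3 or DAPT+sErbB4 replicate 1, and with a replicate block (0.067). The log2 FC in these fits was -0.81 to -0.53. MSTRG.10036 was called lower in vehicle than in DAPT with 3.44, 3.18 and 3.16 CPM against 13.3, 3.31 and 10.1 CPM. DAPT replicate 2 was at the vehicle level and sErbB4 replicate 2, at 9.02 CPM, near the high DAPT libraries. Its log2 FC of -1.45 (SE 0.48, edgeR adjusted p = 0.049) was no longer called in 9 of 12 fits that left out 1 library, all but those without sErbB4 replicate 1 or 2 or DAPT replicate 2, nor with a replicate block (0.087), with log2 FCs of -1.83 to -1.07 when 1 library was left out.

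**Figure D4:**
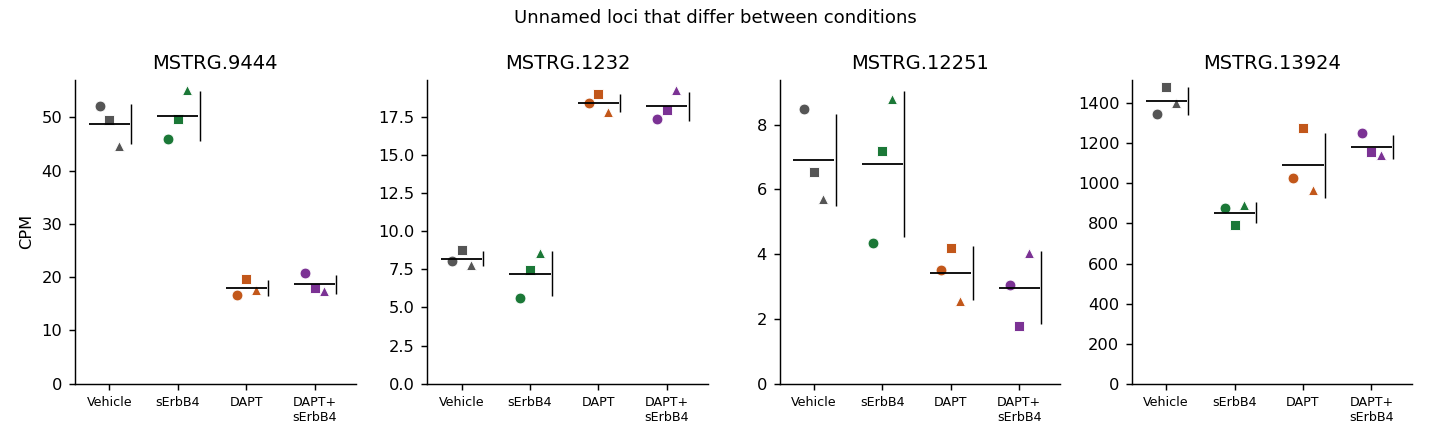
CPM of 4 unnamed loci in each library by condition, each on its own linear axis from 0, with circles, squares and triangles for replicates 1, 2 and 3, the mean as a horizontal line and the SD as a vertical line (n = 3). MSTRG.9444 and MSTRG.12251 lie higher and MSTRG.1232 lower in the 6 libraries without DAPT, and MSTRG.13924 is lowest in sErbB4 at 794 to 892 CPM.

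Both comparisons share no library, and their calls are set side by side. They came from the same fit of all 12 libraries with a shared estimate of each row's spread, so they are not separate experiments. Of the unnamed loci, 88 were called in both, 83 in the same direction, 58 higher and 25 lower without DAPT. The 83 are 46.1% of the calls in sErbB4 against DAPT+sErbB4 and 40.9% of those in vehicle against DAPT. For named loci these shares of the calls were higher, at 69.6 and 70.3%. Of the rows tested, 83 of 1957 unnamed loci and 1329 of all 17640 rows (7.53%) were called in both in the same direction. Across the 1204 unnamed loci at 5 CPM or more, the log2 FCs of both comparisons had a Pearson r of 0.50, and across 10887 named loci one of 0.84. With the loci under 5 CPM included, Pearson r was 0.42 for unnamed and 0.27 for named loci, and Spearman rho 0.43 and 0.66. Loci are not independent replicates, and they share their libraries within a comparison.

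The remaining 5 unnamed loci were called in opposite directions, against 0 named loci (0.0283% of all rows). MSTRG.13924, MSTRG.161, MSTRG.1589, MSTRG.7117 and MSTRG.15070, which these counts chose after their values were seen, were lower in sErbB4 than in DAPT+sErbB4 and higher in vehicle than in DAPT. MSTRG.1589, at a mean of 4787 CPM, had log2 FCs of -0.34 and 0.36, MSTRG.7117, at 15.7 CPM, of -0.43 and 0.62, and MSTRG.15070, at 2.45 CPM, of -1.36 and 1.53. Over the other settings and libraries left out, 1 to 9 unnamed and 0 to 2 named loci were called in opposite directions, the lowest with library size alone.

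**Figure D5:**
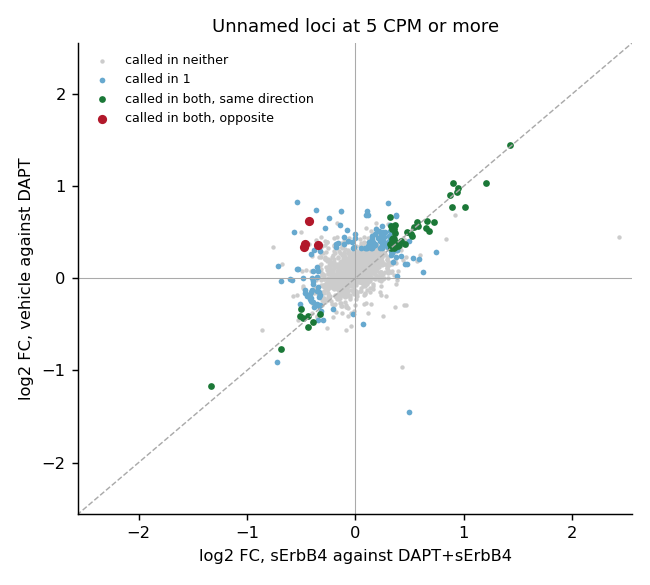
Log2 FC of the 1204 unnamed loci at 5 CPM or more in sErbB4 against DAPT+sErbB4 (x axis) and in vehicle against DAPT (y axis), with equal values on the dashed line. At this level 55 loci were called in both in the same direction (green) and 4 in opposite directions (red, upper left), 146 were called in 1 comparison (blue) and 999 in neither (grey).

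In sErbB4 against DAPT, which differ in both agents, 151 unnamed loci were called, 99 higher and 52 lower. This was 7.72% of unnamed loci, with 9.53% of all rows and 9.76% of named loci called. Higher calls were 5.06% of unnamed loci against 5.73% of all rows, and lower calls 2.66% against 3.8%. The number depended on sErbB4 replicates 1 and 2, since 237 loci were called without the former and 108 without the latter, and 84 (38 higher, 46 lower) with library size alone. MSTRG.9444, MSTRG.12251 and MSTRG.1232 were again at the ends, with log2 FCs of 1.48, 1.00 and -1.35. MSTRG.16329 was the other lower locus, at 2.82, 6.39 and 4.35 CPM in sErbB4 and 8.64, 8.26 and 12.1 CPM in DAPT. It stood at 4.6, 7.19 and 4.03 CPM in vehicle and 6.90, 7.79 and 7.92 CPM in DAPT+sErbB4, so sErbB4 was below DAPT in every library. Its log2 FC was -1.09 (SE 0.27, edgeR adjusted p = 0.015), and its call was lost without DAPT replicate 3 (0.064, same test). The call of MSTRG.12251 in this comparison (adjusted p = 0.045, same test) was lost in 9 of 12 fits that left out 1 library, all but those without sErbB4 replicate 1 or DAPT+sErbB4 replicates 2 or 3, and with a replicate block (0.081).

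Comparing sErbB4 with vehicle asks what the ligand does without the inhibitor. DESeq2 called 22 unnamed loci, 3 higher and 19 lower in sErbB4 (1.12% of unnamed and 0.13% of named loci), and limma 0. MSTRG.13924 was the only unnamed locus called by edgeR (0.051% of unnamed loci, with 0.034% of all rows). It stood at 876, 794 and 892 CPM in sErbB4 and 1348, 1483 and 1401 CPM in vehicle, at 1028, 1275 and 967 CPM in DAPT and, with both agents, at 1250, 1157 and 1140 CPM. The sErbB4 libraries were the 3 lowest of all 12 and the vehicle libraries the 3 highest. Its log2 FC was -0.72 (SE 0.09, edgeR adjusted p = 0.027), and the interaction with DAPT was -0.84 (SE 0.13, edgeR adjusted p = 0.18), which was not called. Left-out libraries kept the direction (log2 FC -0.76 to -0.67), but the adjusted p stayed under 0.05 only without DAPT replicate 2 or 3 (0.0029 and 0.034, same test) and was 0.057 to 0.15 without any other library. It was 0.10 with a replicate block and 0.079 by limma.

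MSTRG.935, MSTRG.161 and MSTRG.6061, again chosen after their values were seen, moved in the same direction as MSTRG.13924, though not in constant proportion. In each library their counts were 2.09 to 2.73, 2.02 to 2.58 and 0.84 to 1.04 times those on MSTRG.13924. These proportions varied by 1.30-, 1.28- and 1.23-fold, while MSTRG.13924 itself spanned 1.87-fold. In sErbB4 against vehicle their log2 FCs were smaller in size than the -0.72 of MSTRG.13924. MSTRG.935 stood at 2130, 1999 and 2437 CPM in sErbB4 and 3139, 3333 and 2932 CPM in vehicle, without overlap. Its log2 FC of -0.52 in sErbB4 against vehicle was not called (SE 0.08, edgeR adjusted p = 0.096), nor were those of MSTRG.161 (-0.57, adjusted p = 0.17, same test) and MSTRG.6061 (-0.54, adjusted p = 0.12, same test). All 3 were called lower in sErbB4 than in DAPT+sErbB4, with log2 FCs of -0.41, -0.48 and -0.38.

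In DAPT+sErbB4 against DAPT 0 unnamed loci were called by edgeR, with 0% of all rows called. At an unadjusted p under 0.05 there were 167 (8.53%, with 8.68% of all rows), 139 of them higher in DAPT+sErbB4 and 28 lower (lower in 3.89% of all rows). With library size alone, which moves the median of all rows to -0.13, 18 were higher and 111 lower. DESeq2 called 1 unnamed locus (0.051% of unnamed and 0.051% of named loci) and limma 0. Without DAPT replicate 3, edgeR called 2. The smallest adjusted p was 0.16.

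The interaction, the sErbB4 effect without DAPT minus that with DAPT, also gave 0 called unnamed loci by edgeR (0.00567% of all rows, 1 named locus) and 0 by limma. DESeq2 called 17, all below 0 (0.87% of unnamed and 0.045% of named loci). At an unadjusted p under 0.05 there were 212 unnamed loci, or 10.8%, against 4.25% of all rows and 3.43% of named loci. Of the 212, 186 were below 0 (2.59% of all rows were), that is, lower in sErbB4 relative to vehicle than in DAPT+sErbB4 relative to DAPT, while 271 of the 538 named loci were. The median interaction log2 FC was -0.08 over unnamed and -0.00 over named loci. In the 12 fits that each left out 1 library, 9.48 to 15.2% of unnamed and 3.02 to 5.37% of named loci had such a p, the highest of both without sErbB4 replicate 2. With library size alone the median of all rows moved to 0.26 and 202 of 232 unnamed loci were above 0. The medians were then 0.18 over unnamed and 0.26 over named loci. Their order is no check on the scaling, which moves both classes nearly alike. In sErbB4 against vehicle, 136 of 171 unnamed loci with an unadjusted p under 0.05 (8.74%, with 7.47% of all rows) were lower in sErbB4, as were 3.86% of all rows. With library size alone, which moves the median of all rows to 0.12, 39 were lower and 113 higher.

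Averaged over both sErbB4 states, 223 unnamed loci were called between cultures without and with DAPT, 147 higher and 76 lower without it. This was 11.4%, with 12.8% of all rows and 13.0% of named loci. Higher calls were 7.51% of unnamed loci against 7.6% of all rows, and lower calls 3.88% against 5.23%. The called loci held 0.45% of the unnamed counts. All 6 libraries without DAPT were above all 6 with it at 149 loci and below at 56, together 10.5% of unnamed loci, with 19.2% of all rows (11.2% above, 7.96% below) and 20.3% of named loci. With library size alone, 67 were higher and 107 lower, and limma called 136 in all.

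The summed level of the 1876 loci after the 100 most abundant, tested after its values were seen, lay between 25359 and 27957 CPM in all libraries. It was 27957, 27950 and 27142 CPM in vehicle, 26426, 27579 and 26702 CPM in sErbB4, 25390, 25359 and 25830 CPM in DAPT and, with both agents, at 26630, 26465 and 26147 CPM. DAPT held the 3 lowest libraries and sErbB4 overlapped DAPT+sErbB4. Without DAPT the sum was 1323 CPM higher than with it (exact permutation test within sErbB4 states, two-sided, p = 0.015, adjusted p = 0.053 over 7 comparisons), and the interaction was -1668 CPM (p = 0.015, same exact test, adjusted p = 0.053). Neither passed the adjusted threshold.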

How the data were processed

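RNA of 12 libraries was poly-A selected and sequenced as 75 bp paired ends. The paper's methods and the submitters' processing notes name Trimmomatic for trimming, HISAT2 for alignment to mm10, StringTie for an assembly not limited to annotated genes, and IsoformSwitchAnalyzeR for gene-level values, beside FastQC, MultiQC and limma, all without versions. The authors deposited estimated counts per locus from this route, not normalized between libraries. They were rounded for tests.

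Unnamed rows stayed out of library sizes (43.4 to 51.8% of counts) and were tested with the named rows. Library sizes and TMM factors (0.926 to 1.18) came from named rows, since the unnamed rows are the ones described. After filterByExpr, 17640 rows were tested with edgeR 4.0.16 (quasi-likelihood, one mean per condition, 8 residual degrees of freedom, R 4.3.3) with Benjamini-Hochberg adjustment over all rows, and calls needed an adjusted p under 0.05 together with an FC above 1.25. Shares and sums were compared by exact permutation tests, two-sided. Alternatives used DESeq2 1.42.0, limma 3.58.1 on log2(CPM + 2) after cyclic loess, other scalings and filters, a replicate block, and fits without 1 library. The edgeR fit was also run on counts simulated from its own estimates. Rows were drawn independently, so loci that move together were not covered.

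The loci printed by ID are the 5 with the highest mean share of counts and, in each comparison, up to 2 called loci in each direction with the highest and lowest log2 FC at a mean of 5 CPM or more; others are named as chosen after their values were seen. The loci, lists and tests were chosen with earlier results of these data known. No sequence or position of an unnamed locus was used.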

Additional observations from a re-analysis of the deposited data

How the results depend on the processing

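By adjusted p alone, 287 of 1957 unnamed loci were called in sErbB4 against DAPT+sErbB4, with 3978 of all 17640 rows. The numbers were 260 and 3361 in sErbB4 against DAPT and 326 and 3888 in vehicle against DAPT. For DAPT over both sErbB4 states they were 489 and 6237. DESeq2 called 1 in DAPT+sErbB4 against DAPT, 22 in sErbB4 against vehicle and 17 in the interaction. These were 0.051, 1.12 and 0.87% of unnamed loci, with 0.051, 0.13 and 0.045% of named loci called. In sErbB4 against vehicle, 0 were called with a replicate block, 0 by limma and 0 with only the libraries compared, where 171 had an unadjusted p under 0.05 in the edgeR fit of all libraries. Limma called 136 for DAPT over both states, and library size alone gave 84 in sErbB4 against DAPT. The cause was not tested, and the other alternatives stayed within 1.5 times.

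Leaving out 1 library gave 139 to 217 calls in sErbB4 against DAPT+sErbB4, 151 to 227 in vehicle against DAPT, 108 to 237 in sErbB4 against DAPT, 189 to 272 for DAPT over both states, 0 to 2 in sErbB4 against vehicle, 0 to 2 in DAPT+sErbB4 against DAPT and 0 to 1 in the interaction (without sErbB4 replicate 1 or DAPT replicates 2 or 3). The difference in unnamed share ran from -1.66 (without sErbB4 replicate 1) to 2.45 points (without sErbB4 replicate 2) in sErbB4 against DAPT+sErbB4, from -2.81 to 1.31 in sErbB4 against vehicle and from -1.71 to 0.34 for DAPT over both states. With Rn45s out of the denominator it turned to -1.37 in sErbB4 against DAPT+sErbB4, 0.48 in vehicle against DAPT and -1.85 in the interaction. The mean share of unnamed counts on 10 loci went from 78.7 to 78.0% without the most abundant locus.

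Log2 FCs between cultures without and with DAPT of 4 of the 5 most abundant loci, none of them called, turned sign under some setting, while that of MSTRG.12033 did not (0.021 to 0.12 without 1 library). By limma they were -0.029 for MSTRG.5888, -0.050 for MSTRG.5572 and -0.026 for MSTRG.7156, and with scaling on all rows -0.0060 for MSTRG.5572. Without 1 library they ran from -0.044 to 0.11 (MSTRG.5888), -0.025 to 0.064 (MSTRG.5572), -0.0099 to 0.096 (MSTRG.7156) and -0.070 to 0.018 (MSTRG.9126).

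Same-numbered libraries were not paired: over the 18 pairs of conditions and numbers, the correlation of deviations of the 2000 highest rows ran from -0.79 to 0.77, with 8 over 0.1. With a replicate block the calls were 177 in sErbB4 against DAPT+sErbB4, 144 in sErbB4 against DAPT, 196 in vehicle against DAPT and 215 for DAPT over both states. It was followed for the response loci in the comparisons that picked them, and for the 5 most abundant loci for DAPT over both states. There it changed no calls beyond those given. Calls of the other printed loci were not followed individually, and with the block 4 unnamed loci were called in opposite directions, against 5 in the main fit. A fit of only the compared libraries was not made for DAPT over both states and the interaction, which use all 4 conditions. Of the tested unnamed loci, 35.2% lay between 2 and 5 CPM, and the parts of counting error and of spread between libraries in what could be called there were not told apart.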
